A study of Mus musculus with 12 samples.

Results

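The tRNAs that carry glutamine, tRNA-Gln, were taken as every row of the deposited tables whose entry is a tRNA-Gln with the anticodon CTG or TTG. They comprise 661 rows of 9 distinct tRNAs, out of 14170 rows of 213 distinct tRNAs in all, after entries with identical values in every library were counted once. Of the 9, 5 have the anticodon CTG (from 10 entries) and 4 have TTG (from 5 entries). The rows hold 653 bases, 176 of them T. For most of the tRNAs they also hold a first row for reads that reach the 5′ end, which was left out.

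The study profiled small RNA from young and from old mice of the wildtype genotype, in the blood-forming hematopoietic stem and progenitor cells. Demethylation with the wild-type and the D135S mutant AlkB, enzymes that take methyl groups off bases, was common to all samples. The RNA was then incubated in BEU buffer with CMC, a carbodiimide that stays on pseudouridine and halts reverse transcriptase, or in the same buffer without it. This gave 4 groups of 3 libraries (young BEU, young CMC, old BEU, old CMC), 12 libraries in all. The labels used here give no age in months and do not say that the libraries of a group came from separate animals, so the spread that the p-values measure, that between libraries, may be technical alone. The tables hold tRNA rows alone, so no marker of the labelled cell type could be looked at.

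Pseudouridine is an isomer of uridine made by pseudouridine synthases, each with preferred places in tRNA. PUS10, the enzyme in the title of the series, and TRUB1 act on the T loop at positions 54 and 55, PUS1 on the anticodon stem at 27 and 28, PUS3 at 38 and 39, and PUS7 at 13. Uridines of the D loop are often reduced to dihydrouridine instead, and the wobble uridine of the TTG anticodon, which reads CAA codons, carries a thiolated side-chain modification.

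The 9 sequences are shown because the stop counts described below follow their identity. Capital T marks each T at which CMC raised stops in either age by the call rule given below, and position numbers follow the usual tRNA scheme, in which positions 54 and 55 of all 9 are bases 53 and 54 counted along the deposited rows.
tRNA-Gln-CTG-1-1: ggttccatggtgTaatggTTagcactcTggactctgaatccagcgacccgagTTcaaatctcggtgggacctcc
tRNA-Gln-CTG-2-1: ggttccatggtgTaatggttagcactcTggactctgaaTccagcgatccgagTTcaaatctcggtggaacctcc
tRNA-Gln-CTG-3-1: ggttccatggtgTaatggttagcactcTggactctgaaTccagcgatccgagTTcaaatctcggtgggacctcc
tRNA-Gln-CTG-4-1: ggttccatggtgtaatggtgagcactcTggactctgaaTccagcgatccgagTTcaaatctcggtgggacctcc
tRNA-Gln-CTG-5-1: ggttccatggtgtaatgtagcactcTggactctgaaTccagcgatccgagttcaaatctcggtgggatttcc
tRNA-Gln-TTG-1-1: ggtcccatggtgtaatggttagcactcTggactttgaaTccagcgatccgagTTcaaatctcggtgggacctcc
tRNA-Gln-TTG-2-1: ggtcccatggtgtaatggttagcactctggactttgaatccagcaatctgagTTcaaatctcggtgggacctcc
tRNA-Gln-TTG-3-1: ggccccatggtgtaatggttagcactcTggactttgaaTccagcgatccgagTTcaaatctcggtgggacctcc
tRNA-Gln-TTG-5-1: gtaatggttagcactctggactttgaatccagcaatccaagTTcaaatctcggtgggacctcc
The entries were read from the deposited row names, and TTG-5-1 starts at base 12 there. Compared with CTG-2-1, which stands for 4 entries, CTG-3-1 differed by A68G alone and CTG-1-1 by T47C and A68G, where the number is the base counted along the rows. The CTG-4-1 entry carried T20G in the D loop besides A68G. CTG-5-1 lacked bases 18 and 19 and carried A68G, C70T and C71T. All 4 TTG tRNAs carried C34T, which makes the anticodon, and A68G. TTG-1-1 and TTG-2-1 also had T4C, TTG-3-1 had T3C and T4C, TTG-2-1 had G45A and C49T, and TTG-5-1 had G45A and G50A. The run of 20 bases 3′ of T55 was the same in 7 of the 9 tRNAs and differed in CTG-2-1 and CTG-5-1.

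The stop rate is the stop reads of a base as a percent of its coverage. A stop read of a base is taken here to end just 3′ of that base and not to include it. The rise is the CMC stop rate minus the BEU stop rate of the same age and number, in percentage points. A T was called where coverage was at least 20 reads in all 12 libraries, the mean rise was at least 10 points, the rise was above 0 in all 3 pairs, and the Benjamini-Hochberg adjusted p of edgeR's quasi-likelihood test over all tRNAs was under 0.05. Of the tRNA-Gln bases, 113 T and 335 A, C or G had that coverage. The highest coverage of each tRNA-Gln, summed over the 9, was 17583 to 54439 reads in the BEU libraries and 5000 to 36314 in the CMC libraries. No base of any tRNA exceeded 8015 reads, and 5 tRNA-Gln in old BEU library 1, 4 in young BEU library 3 and 1 each in young BEU library 1 and young CMC library 2 came within reach of that ceiling (7500 reads or more), where stops 3′ of it are hardly recorded. Stop rates of those tRNAs can be understated in those libraries.

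CMC raised stops at 34 of 113 T of tRNA-Gln in young cells (30.1%, against 18.8% of the 2189 T tested over all tRNAs). In old cells it did so at 33 of 113 (29.2%, against 20.3%), and all 33 were among the 34. The 34 held 14 distinct sets of CMC stop counts, and 26 of the 34 (76.5%) had the same counts as another tRNA. Such sharing was less common among called T of other tRNAs (159 of 428, 37.1%). The called sites are therefore not separate results, and the shares of tRNA-Gln and of all tRNAs are not on equal terms. The called T lay at 5 named positions, 13, 28, 39, 54 and 55, and at bases 19 and 20 of 1 tRNA. None was called at positions 16, 26, 33, 34, 35, 60, 62, 66, 71, 72 or 73. Among sites that stayed under the ceiling in all libraries, 17 of 57 were called in young cells (17.8% of 1179 over all tRNAs) and 16 of 57 in old cells (19.7%). Over the 113 T the median rise of young cells was 1.08 points and that of old cells 1.16, against 1.75 and 2.25 over all 2189 T.

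**Figure D1:**
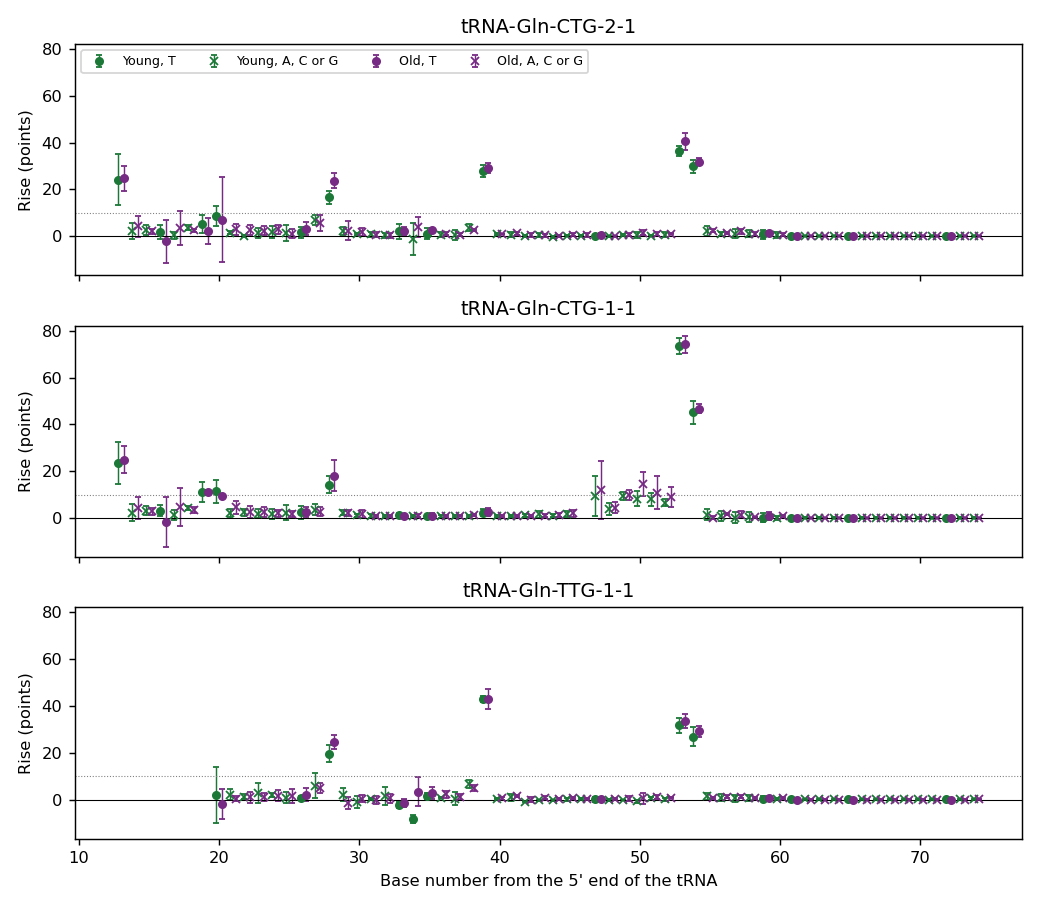
Mean rise with CMC (percentage points, bars are the SD of 3 pairs) at each tested base of tRNA-Gln-CTG-2-1, CTG-1-1 and TTG-1-1, against the base number from the 5′ end; circles are T, crosses are A, C or G, and the dotted line is the 10-point minimum. Bases 53 and 54 (positions 54 and 55) stand out in all 3 tRNAs, base 39 in CTG-2-1 and TTG-1-1 but not in CTG-1-1 (2.27 points in young cells), and bases 47 to 52 of CTG-1-1 lie above their neighbours.

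At T54, the first of the neighbouring T-loop uridines, 8 of 9 tRNA-Gln were called in each age, where 24.7% of 146 T54 sites over all tRNAs were called in young cells and 28.8% in old. Of these 8, 7 shared 1 set of CMC stops and CTG-2-1 had its own, so they are not 8 separate results. Young cells had a median rise of 31.7 points and old cells one of 33.8, against 3.94 and 5.48 in the 137 T54 sites of other tRNAs. In TTG-5-1 the CMC stop rates at T54 were 91.1%, 86.7% and 91.1% in young cells and 88.9%, 88.0% and 85.6% in old cells. Its BEU rates were 12.9%, 11.9% and 10.5% in young and 9%, 11.1% and 11.4% in old cells. Every CMC library lay far above every BEU library, and the ages overlapped. CTG-1-1, which had lower BEU rates, gave 79.4%, 72.7% and 76.9% with CMC in young cells and 76.5%, 80.4% and 73.4% in old cells. In TTG-2-1 the rise was 77.4 ± 3.76 points for young cells, with 76.99 ± 3.18 for old ones (SD, n = 3 pairs each).

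The other called T54 sites formed a lower group. CTG-2-1, with the most reads, rose from 1.5%, 2.14% and 0.364% to 39.8%, 36.2% and 37.5% in young cells, and from 0.163%, 1.83% and 1.56% to 42.7%, 44.4% and 38% in old cells. In TTG-1-1 young pairs gave a rise of 31.7 ± 3.18 points and old pairs 33.8 ± 3.02 (SD, n = 3 each), and TTG-3-1, which differs from it at 1 base, gave 31.7 and 33.7. Young and old means were 28.3 and 31.0 points in CTG-4-1, and 27 and 29.8 in CTG-3-1. The lowest pair of the high group (69.4 points, CTG-1-1) lay above the highest pair of the lower group (42.6 points, CTG-2-1).

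CTG-5-1 stood outside both groups. Its CMC stop rates at T54 were 1.71%, 0.501% and 1.10% in young and 1.88%, 1.01% and 1.02% in old cells, a rise of 0.948 ± 0.580 and 1.16 ± 0.571 points (SD, n = 3 pairs each). At T55 of the same tRNA the mean rises were 0.810 and 0.788 points. With 1 to 4 stop reads per CMC library, the rises lay far under the 10-point minimum (edgeR, adjusted p = 0.0188 in young and adjusted p = 0.00420 in old cells at T54). With 1 subtracted from all counts they were 0.415 (adjusted p = 0.148) and 0.628 points (adjusted p = 0.0345) at T54, and 0.274 and 0.248 at T55 (old cells, adjusted p = 0.125). Without young pair 1 or 3, or old pair 1, the T54 rises were 0.691, 0.891 and 0.835 points (adjusted p = 0.0565, adjusted p = 0.122 and adjusted p = 0.0808). Without old pair 1 or young pair 3 the T55 rises were 0.585 and 0.678 points (adjusted p = 0.281 and adjusted p = 0.0542). The library with the lowest coverage had 91 reads at T54.

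At T55, where most tRNAs carry a pseudouridine, 8 of 9 tRNA-Gln were called in each age, with 78.8% of 160 T55 sites called over all tRNAs in young and 83.8% in old cells. As at T54, 7 of the 8 shared 1 set of CMC stops and CTG-2-1 had its own. The median was 26.9 points for young cells and 29.2 for old ones, against 34.5 and 38.8 in other tRNAs. The CMC stop rates in CTG-1-1 were 45.3%, 43.0% and 51.8% in young and 48.9%, 50.0% and 46.5% in old cells. CTG-2-1 gave 33%, 28.3% and 31.4% in young and 32.2%, 34.7% and 31.5% in old cells. TTG-2-1 and TTG-5-1 reached mean rises of 45.2 and 44.6 points in young cells, close to CTG-1-1 (45.1), while CTG-3-1, CTG-4-1, TTG-1-1 and TTG-3-1 lay between 24.0 and 26.9 points. The order of the tRNAs was much the same as at T54, with smaller gaps. Among the 7 with shared stops, the order of the CMC stop rates at each base is set by read-through alone. Reads past T54 are among those past T55, so the like order is no separate result.

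**Figure D2:**
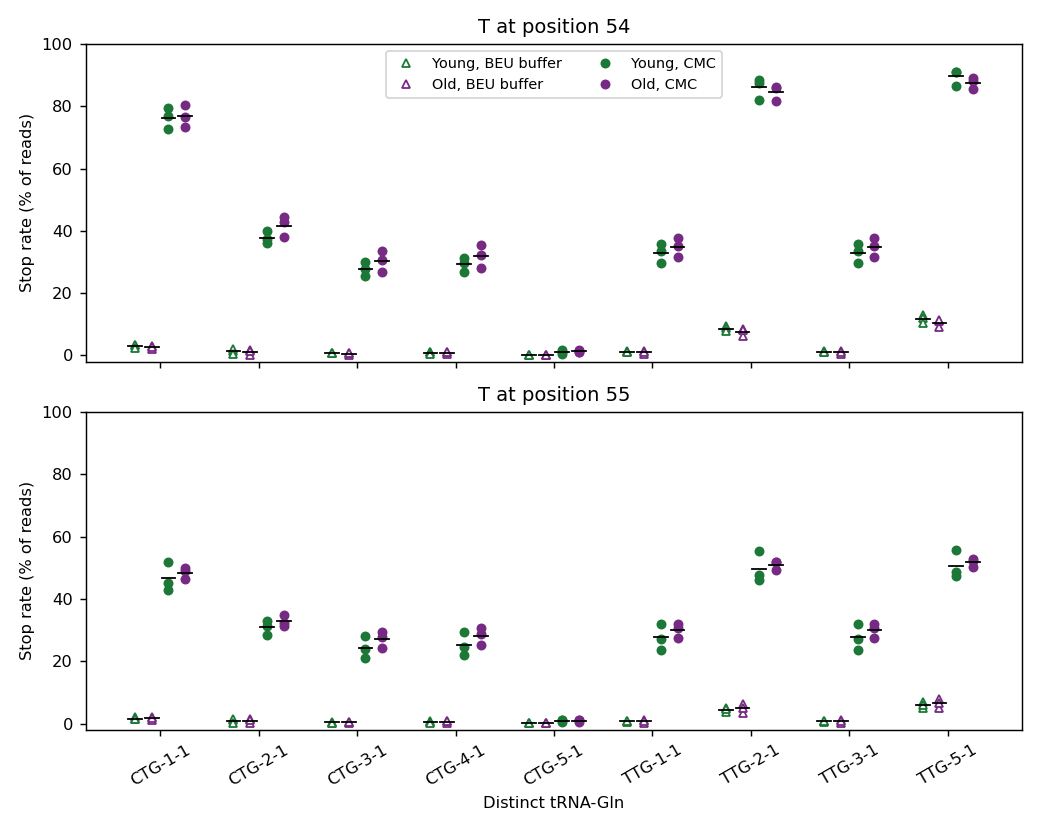
Stop rate in each library (percent of reads) at T54 (top) and T55 (bottom) of the 9 distinct tRNA-Gln; open triangles are BEU libraries, filled circles CMC libraries, and short lines the mean of 3 libraries. CTG-1-1, TTG-2-1 and TTG-5-1 lie highest at both positions, and CTG-5-1 stays below 2% with CMC.

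Within a tRNA, the rise at T54 was above that at T55 in all 6 pairs of both ages in 7 of the 9 tRNA-Gln. The difference was 32.6 ± 1.69 points in TTG-5-1, 31.6 ± 1.80 in TTG-2-1 and 27.8 ± 2.91 in CTG-1-1 (SD, n = 6 pairs). It was 7.57 ± 1.88 points in CTG-2-1 and 3.49 ± 2.07 in CTG-4-1. For each of the 7, the two-sided exact sign-flip permutation test over the 6 pairs gave p = 0.03125, the smallest it can give, and 0.0402 adjusted over the 9 tRNAs. These 7 rest on 2 sets of CMC stops at each base and so are not 7 separate results. In both sets the stop reads themselves were fewer at T54 than at T55 in all 6 CMC libraries, and the rate at T54 is taken over the reads that had passed T55. CTG-3-1 was higher at T54 in 5 of 6 pairs (adjusted exact p = 0.0703) and CTG-5-1 in 4 of 6 (0.125). In the other tRNAs the medians ran the opposite way, with 3.94 points at T54 and 34.5 at T55 in young cells. Of the families most like it, the 6 tRNA-Trp T54 sites had a median of 57.1 points against 50.2 at T55, and the 4 tRNA-Pro sites 13.6 against 33.5, in young cells.

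The stop reads behind these rates were not separate measurements. At T54, CTG-1-1, CTG-3-1, CTG-4-1 and all 4 TTG tRNAs had exactly the same number of stop reads in every CMC library: 247, 974 and 123 in young cells and 273, 168 and 452 in old cells. These are the 7 tRNAs with the same bases 3′ of T55. A read that ends after T54 holds nothing but that stretch and T55, which the 7 share:
shared by 7 tRNA-Gln: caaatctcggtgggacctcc
CTG-2-1: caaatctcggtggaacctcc
CTG-5-1: caaatctcggtgggatttcc
CTG-2-1 had its own counts, 438, 1805 and 208 in young and 504, 299 and 826 in old cells, and CTG-5-1 had at most 4 per CMC library. At T55 the 7 again shared their counts, 258, 1026 and 173 in young and 344, 208 and 538 in old cells. So the 7 T54 rises, from 27 to 77.9 points in young cells, rest on 1 set of CMC stop reads and differ through the reads that run past T54.

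Those read-through counts differed widely. In the CMC libraries CTG-3-1 had 573, 2862 and 319 reads past T54 in young and 621, 331 and 1234 in old cells. CTG-1-1 had 64, 365 and 37 in young and 84, 41 and 164 in old cells. TTG-5-1 had 24, 150 and 12 in young and 34, 23 and 76 in old cells. The 3 tRNAs with the highest stop rates were thus those with the fewest reads past T54. Each of the 3 carries a base between 45 and 50 that sets it apart (T47C in CTG-1-1, G45A with C49T or G50A in TTG-2-1 and TTG-5-1), 5′ of the shared stretch. From which of the 7 tRNAs the shared stop reads came was not resolved by the deposited counts, and the sources used here do not say how reads that fit several tRNAs were assigned.

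**Figure D3:**
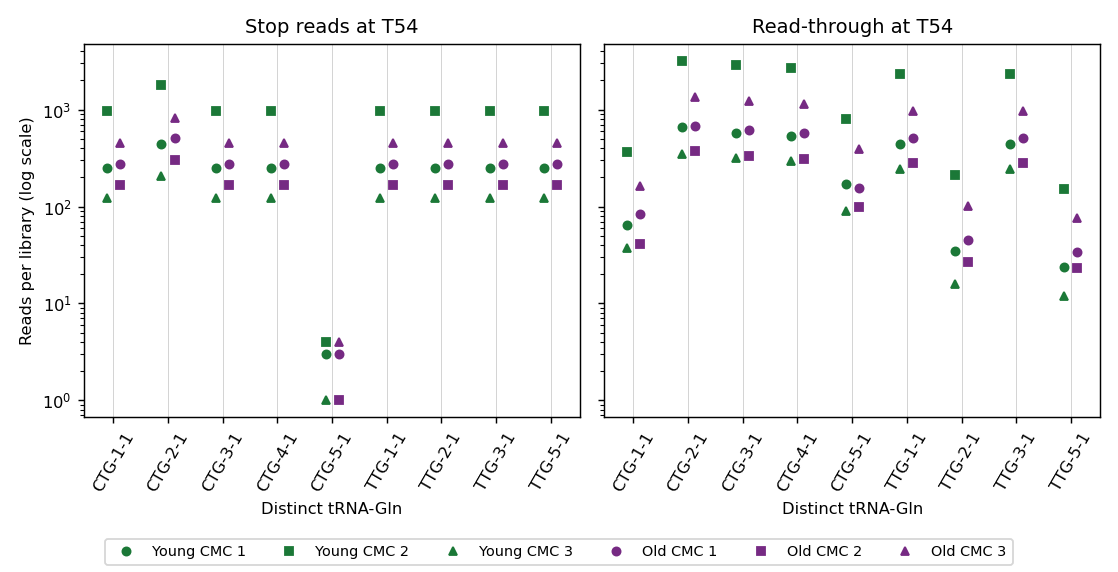
Reads at T54 in the 6 CMC libraries (log scale) for each distinct tRNA-Gln: reads that stop there (left) and reads that run past it (right); green is young, purple is old, and the symbol is the library number. The stop counts of 7 tRNAs coincide in every library, while read-through of TTG-5-1 (12 to 150) lies far below that of CTG-3-1 (319 to 2862).

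The same held for the fewer pairs at T28 and T39. Among pairs of tRNA-Gln called at the same position, 50 of 50 pairs with identical sequence 3′ of the base had identical stop counts in all 6 CMC libraries. Most of these 50 were pairs of the 7 tRNAs at T54 and T55 described above, and the rest lay at T28 and T39. Of 45 pairs whose 3′ sequence differed, 7 had identical counts. All 7 of these paired CTG-2-1 with tRNAs that differ from it 3′ of the base at base 68 alone, the difference that went with separate counts at T54 and T55. Of the 34 called T, 26 (76.5%) had stop counts equal to those of another tRNA, and the 34 held 14 distinct sets of counts. In other tRNAs 159 of 428 called T (37.1%) shared their counts, with 333 distinct sets.

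T28 in the anticodon stem, a known PUS1 position, was called in 7 of the 7 tRNA-Gln tested there in both ages (54.5% of 77 T28 sites over all tRNAs in each age), from 4 distinct sets of stops. Medians were 19.2 points for young cells and 24.6 for old ones, against 10.8 and 11.7 in the 70 T28 sites of other tRNAs. In CTG-2-1 the CMC stop rate was 15.8%, 15.1% and 20.0% in young and 25.8%, 25.9% and 20.4% in old cells, with BEU rates of at most 0.464%. In TTG-1-1 it was 23.9%, 20.6% and 16.7% in young and 23.1%, 28.4% and 24.1% in old cells. CTG-2-1, CTG-3-1 and CTG-4-1 shared 1 set of CMC stops (50, 201 and 33 in young, 79, 44 and 114 in old cells), and their rises in young cells ran from 16.6 to 23.7 points. TTG-1-1 and TTG-3-1 shared another.

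T39, just 3′ of the anticodon loop and a known PUS3 position, was called in 6 of 7 tRNA-Gln in both ages, where 79.2% of 72 T39 sites over all tRNAs were called in young and 80.6% in old cells. CTG-2-1 gave CMC stop rates of 25.9%, 30.9% and 29.4% in young and 30.7%, 27.4% and 31.1% in old cells. TTG-3-1 gave 43.2%, 46.1% and 45.3% in young and 44.9%, 39.7% and 48.0% in old cells. Both anticodons, in 5 tRNAs, shared the same T39 stops, 163, 896 and 101 in young and 198, 94 and 386 in old cells. A read that stops at T39 does not include the anticodon, so how many of these stops came from TTG tRNAs was not resolved. In the deposited counts the higher rate of the TTG tRNAs at T39 came with fewer read-through reads. The sixth, CTG-5-1, had its own stops and rose by 29.1 ± 4.51 points in young pairs, with 29.5 ± 4.51 for old ones (SD, n = 3 each).

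CTG-1-1 was the exception at T39. Its CMC stop rates there were 0.833%, 3.14% and 3.08% in young and 4.62%, 1.52% and 2.00% in old cells, a rise of 2.27 ± 1.34 and 2.59 ± 1.70 points (SD, n = 3 pairs each). CTG-1-1 and CTG-3-1, whose rise was 28.3 ± 2.49 points in young cells, differ at base 47 alone (T47C). The lowest pair of CTG-3-1 (25.4 points) lay well above every pair of CTG-1-1. The contrast between these tRNAs was chosen after the values were seen and has no test. At the other side of the stem, T28 was called in CTG-1-1 too, with rises of 14.1 ± 3.62 and 18.1 ± 6.51 points.

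T13 in the D arm, a known PUS7 position, was covered well enough in 3 tRNAs, CTG-1-1, CTG-2-1 and CTG-3-1, and called in all 3 in both ages (68% of 25 T13 sites over all tRNAs in young, 72% in old cells). CMC stop rates in CTG-2-1 were 15.6%, 21.3% and 36.4% in young and 31.1%, 21.7% and 23.8% in old cells, with BEU rates of 0.103% to 1.01%. The spread between libraries was wide, and the lowest CMC coverage was 22 reads. The stop counts of CTG-1-1 there (7, 40 and 7 in young, 14, 5 and 19 in old cells) differed from those of CTG-2-1 and CTG-3-1 by 1 read in young CMC library 3, where these had 8.

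The D-loop uridines at bases 19 and 20 were called in CTG-1-1 alone. At base 19 its stop rate rose from 6.42%, 8.24% and 5.45% to 20.7%, 14.3% and 17.9% in young cells, and from 3.66%, 5.63% and 3.70% to 13.9%, 17.5% and 14.8% in old cells. Base 20 rose by 11.3 ± 4.85 points in young cells and by 9.37 ± 0.552 in old cells (SD, n = 3 pairs each), under the minimum in old cells. Both sites lie close to the 10-point minimum. With young pair 1 left out, the young rises at bases 19 and 20 were 9.27 and 8.55 points and both calls ended, and with 1 subtracted from all counts base 19 rose by 9.87 points in young and 9.82 in old cells.

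D-loop bases of tRNA-Gln, CTG-1-1 included, also stopped reverse transcriptase without CMC. The mean BEU stop rate at base 20, a T, was 25.4% ± 1.36 in young CTG-2-1 libraries (SD, n = 3) and 33.6% ± 3.76 in young TTG-1-1 libraries. At T16 it was 15.4% ± 0.485 in CTG-1-1. These stops rose little with CMC: 8.6 points at base 20 of CTG-2-1 and 1.95 as the median of 3 sites at T16, in young cells. CTG-4-1 has G at base 20 (T20G), and there 93.1% ± 1.11 of its reads stopped in young and 92.7% ± 0.969 in old BEU libraries (SD, n = 3 each). Its stop counts at that G, 952, 572 and 1754 in the young BEU libraries, were those of base 20 in CTG-3-1, and they were equal in all 6 CMC libraries as well.

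Of the 335 A, C and G tested, which cannot be pseudouridine, edgeR's quasi-likelihood test with the same minimums called none in young cells (0.368% of 7870 over all tRNAs). At an unadjusted p under 0.05, 37 of the 335 were higher with CMC (11%, against 18.3% over all tRNAs), and limma and DESeq2 called 0 each. In old cells 3 of 335 were called (0.61% over all tRNAs), the bases C47, G50 and A51 of CTG-1-1. G50 rose by 14.5 ± 5.28 points, A51 by 10.8 ± 7.14 and C47 by 11.9 ± 12.3 (SD, n = 3 pairs). Stops at these bases too were shared: the counts at base 50 in the CMC libraries, 8, 36 and 5 in young and 19, 6 and 21 in old cells, were those of CTG-3-1, where the rise in old cells was 0.435 points. Coverage of CTG-1-1 at the 3 bases went down to 21 reads. Without old pair 2, C47 rose by 4.85 points and A51 by 6.99, and both calls ended.

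Comparing old with young cells is what the design of the series names. None of the 34 tRNA-Gln T tested for an age difference in the CMC effect passed an adjusted p of 0.05 by edgeR's quasi-likelihood test, and 0% of the 439 T over all tRNAs did. At an unadjusted p under 0.05 there were 3 of 34 (8.82%, against 5.01% over all tRNAs), and limma and DESeq2 called 0 each. The mean rise was higher in old cells at 30 of 34 sites (88.2%, against 66.1%), with a median difference of 1.80 points, against 1.39 over all 439. These 30 sites held 13 of the 14 distinct sets of CMC stops. On the log-odds scale of the test it was higher at 26 of 34 (76.5%, against 70.2% over all tRNAs), so the gap to other tRNAs was smaller there. The age groups did not overlap at 4 of 34 sites (11.8%, against 13% over all tRNAs), which held 2 sets of stops.

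All 4 of these were T28 sites, and some were barely apart. In TTG-3-1 the highest young pair was 22.305 points and the lowest old pair 22.309. TTG-1-1, with the same CMC stops, overlapped. In CTG-2-1 the highest young pair was 19.77 points and the lowest old pair 19.93. T28 of CTG-4-1 rose by 22.4, 21.9 and 26.9 points for the young pairs, against 34.97, 36.8 and 28.5 for the old ones, a difference of 9.70 ± 2.99 points (SE) that missed the test (edgeR, adjusted p = 0.960). T28 of CTG-5-1 gave 17.7, 21.98 and 31.4 points for the young pairs, against 46.5, 35.9 and 27.6 for the old ones, a difference of 12.9 ± 6.8 (SE) with overlapping ages (edgeR, adjusted p = 0.909). In CTG-2-1 the difference was 7.12 ± 2.48 points (SE). The age difference at T28 was above 0 in 7 of the 7 tRNA-Gln tested, from 3.96 to 12.9 points, over 4 sets of stops. TTG-2-1 and TTG-5-1, with under 20 reads there in some library, were not tested and gave differences of -1.28 and -0.591 points. Leaving out old pair 1 brought CTG-1-1 to 0.348 and CTG-5-1 to 8.02 points, leaving out old pair 3 brought them to 6.65 and 17.5, and leaving out young pair 3 brought TTG-1-1 to 3.23 points. The difference was above 0 in 31 of 35 tested T28 sites of other tRNAs, with a median of 4.15 points against 7.09 in tRNA-Gln, and 16 of those 35 did not overlap. Over the alternative settings the lowest adjusted p of any tRNA-Gln T28 was 0.236.

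The lowest age differences of all sites were 1.93 points lower in old cells at base 20 of CTG-1-1, 0.897 lower at T54 of TTG-5-1 and 0.431 lower at T54 of TTG-2-1, each within its SE of 2.82, 2.38 and 2.84 points. The highest difference at T54 was 4.02 ± 2.41 points (SE) in CTG-2-1, and at T55 2.77 ± 2.83 in CTG-4-1. At T13 of CTG-1-1, the third site with an unadjusted p under 0.05 besides T28 of CTG-4-1 and CTG-5-1, the 2 scales disagreed, with 1.45 points more in old cells and a log2 odds ratio of -1.71. The old and young pairs overlapped there.

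**Figure D4:**
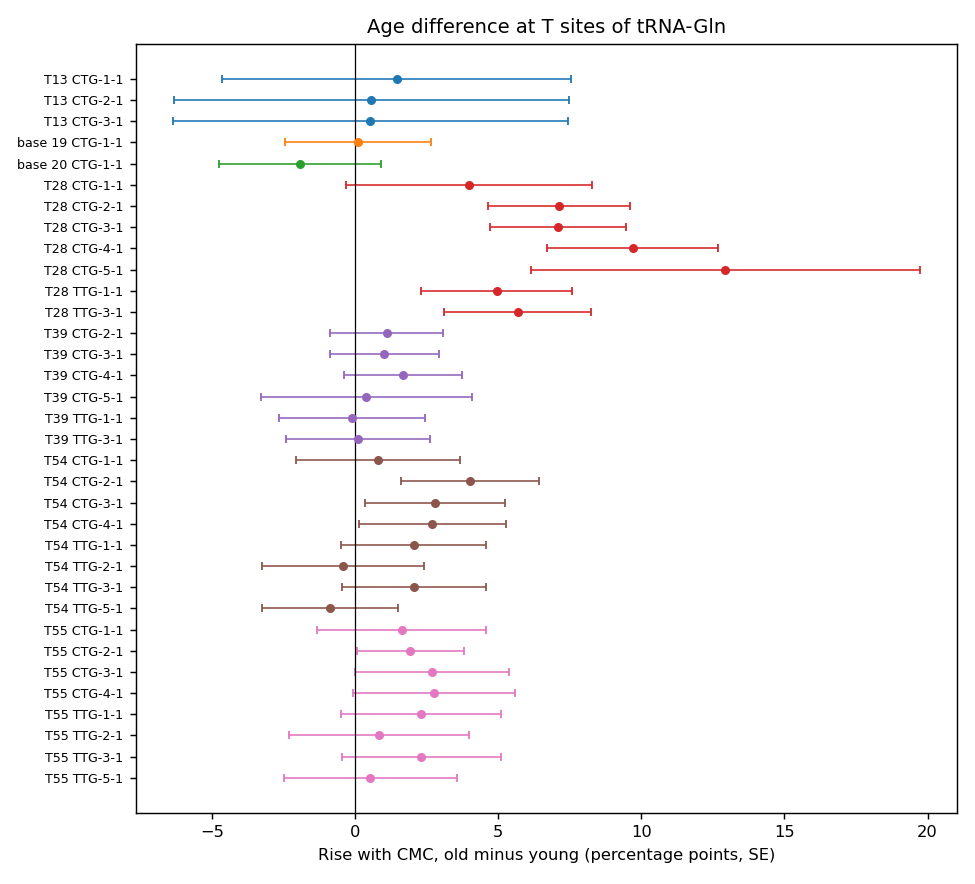
Old minus young rise with CMC (percentage points, bars are the SE) at the 34 T sites of tRNA-Gln in the age test, grouped by position. The 7 T28 sites lie between 3.96 and 12.9 points, and the T39, T54 and T55 sites at or below 4.02 points.

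Without CMC, no tRNA-Gln base passed the test for an age difference, among bases where BEU stops averaged 5% or more: 0 of 49 had an adjusted p under 0.05 in edgeR (0% of 1190 over all tRNAs). At an unadjusted p under 0.05 there were 5 of 49, from 3 sets of stops, a share of 10.2% close to the 9.58% over all tRNAs. The values at the wobble base are given because other settings called it. The wobble T34 of TTG-1-1 stopped 30.03%, 30.2% and 25.7% of reads in the young BEU libraries and 17.2%, 17.7% and 17.7% in the old ones, with no overlap (edgeR, adjusted p = 0.121). T33 beside it stopped 13.6% ± 0.492 in young and 9.19% ± 0.847 in old libraries (SD, n = 3 each; edgeR, adjusted p = 0.228). TTG-3-1 had the same stop counts as TTG-1-1 at T33 and T34 in all 6 BEU libraries, so its rates at T34 (28.4% and 17.6%) are no second observation. Among bases under the ceiling in all libraries, edgeR called T33 and T34 of both tRNAs (adjusted p of 0.00209 at T34, 0.0268 at T33 of TTG-1-1), 4 of 36 tRNA-Gln bases from 2 sets of stops, against 5.6% of 893 over all tRNAs. DESeq2 called T34 of both (adjusted p = 0.00122), 2 of 49 from 1 set of stops, against 1.93% of 1190.

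A read that stops at T34 does not include base 34, so these stops could not be assigned to the TTG or the CTG anticodon. Their counts in TTG-1-1, 707, 429 and 1118 in young and 266 and 221 in old BEU libraries 2 and 3, were also those at C34 of CTG-4-1, and all 6 CMC counts were equal between them. At C34 of CTG-4-1 stop rates were 21.6%, 22.4% and 19.1% in young and 13% and 12.8% in old BEU libraries 2 and 3, with old library 1 at the ceiling (0.0375%). C34 of CTG-5-1, with its own reads, stopped 27% ± 0.420 in young and 23.1% ± 0.707 in old libraries (SD, n = 3 each; edgeR, adjusted p = 0.458). A read that stops at T33 does include base 34, and there the counts of TTG-1-1 (223, 127 and 444 in young BEU libraries) and CTG-4-1 (141, 101 and 244) differed. C34 of CTG-1-1 stopped at most 0.543% of reads in BEU.

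With CMC the ages overlapped at T34: TTG-1-1 stopped 20.2%, 21.8% and 19.4% of reads in young and 19%, 15.8% and 27.9% in old CMC libraries. The rise was therefore -8.20 ± 1.80 points for young cells, against 3.38 ± 6.15 for old ones (SD, n = 3 pairs each), and neither passed the test. At C34 of CTG-5-1, picked out after its values were seen, young rates went from 27% in BEU to 11.9% with CMC (edgeR, adjusted p = 0.00704) and old rates from 23.1% to 17.4% (adjusted p = 0.151).

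**Figure D5:**
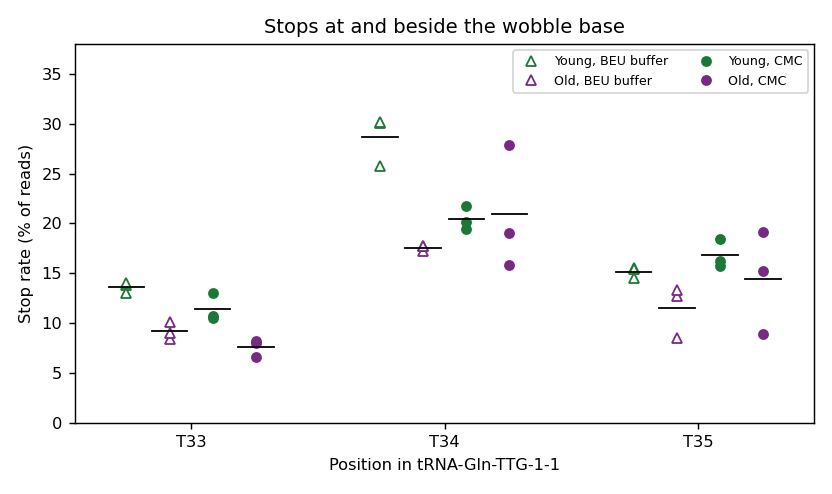
Stop rate in each library (percent of reads) at T33, T34 and T35 of tRNA-Gln-TTG-1-1; open triangles are BEU libraries, filled circles CMC libraries, and short lines the mean of 3 libraries. At T34 the 3 young BEU libraries lie at 25.7% to 30.2% and the 3 old ones at 17.2% to 17.7%, while the CMC libraries of both ages overlap.

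Some T-stem bases of TTG-2-1 and TTG-5-1 also showed stops without CMC, in rows too thinly covered for the test. At base 50 of TTG-5-1 (G50A) the stop rate was 41.6% ± 8.38 in young and 35.2% ± 7.87 in old BEU libraries (SD, n = 3 each), with coverage down to 6 reads. Its stop counts, 95, 79 and 164 in young BEU libraries, were equal to those of CTG-1-1, where the same counts made up 6.61% of reads. Base 50 of TTG-2-1, a G as in CTG-1-1, had these counts too, at 25.0% of reads in young and 22.1% in old BEU libraries. At base 49 of TTG-2-1 (C49T) the rate was 21.7% ± 7.35 in young and 14.7% ± 3.50 in old libraries, again with stops shared with CTG-1-1 in every CMC library.

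Read abundance of the 9 tRNA-Gln, taken as the highest coverage of each in the BEU libraries, did not pass the test for an age difference in any of them (edgeR, 0 of 9, and 0% of 213 over all tRNAs, with 0 of 9 and 12 of 213 at an unadjusted p under 0.05). DESeq2 called 0 of the 9. The log2 fold changes ran from 0.18 in CTG-4-1 to 0.40 in CTG-1-1, with adjusted p of at least 0.681 in edgeR. CTG-1-1 had a highest coverage of 2096, 1379 and 4208 reads in young and 6262, 1312 and 1109 in old BEU libraries, before scaling for depth. The ceiling bounds the most abundant: CTG-2-1, CTG-3-1 and CTG-4-1 reached it in young library 3 and old library 1. TTG-1-1 and TTG-3-1 did so in old library 1 (7995 reads each). TTG-3-1 in young library 3 (7524 reads) and CTG-2-1 in young library 1 (7557 reads) came close to it. Coverage shared between tRNAs enters these levels as it does the stops.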

How the data were processed

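Stops at tRNA bases were compared between CMC and BEU libraries and between ages. Per the file headers, the 6 tables the authors deposited give for each base a coverage (a count of reads), the stop reads and the stop rate, a percent. The deposited percent equals 100 times stop reads over coverage. Bowtie, Bowtie2 2.3.5 and the build mm10 stand in the submitters' processing notes, without roles. The treatment of reads that fit several tRNAs was not given in the sources used here. Values of 1 are the lowest in the tables, so a constant may have been added. No genome coordinates are given, since entry names matched no gene table used here.

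Entries with identical values were merged. Paired stop and read-through counts of all sites were fitted with edgeR 4.0.16 in R 4.3.3 (quasi-likelihood, 1 coefficient per library for coverage, 1 stop log-odds term per group), with p adjusted over all T, or over all A, C and G. The age test took T with a mean rise of 10 points or more over the 6 pairs, the BEU test bases where BEU stops averaged 5% or more. Abundance used TMM. Named sites were all T54 and T55, the best-covered called site of each anticodon at other positions, the 3 highest and 3 lowest age differences, called A, C and G sites, and bases past the BEU test; others were added after their values were seen. The members and lists were chosen with earlier results of these data known. Fits were tested on simulated stops. Alternatives were coverage minimums of 50 and 10, 1 subtracted, all entries, sites under 7500 reads, limma 3.58.1 on log2 odds with 0.5 added, DESeq2 1.42.0, a replicate block and each pair left out. Reads carry no molecular identifiers here, so counting error understates the spread.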

Additional observations from a re-analysis of the deposited data

How the results depend on the processing

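Under the alternatives, the counts of called T and of T54 above T55 stayed within 1.5 times their main value, except among sites under the ceiling, and the age calls in CMC stops and in abundance stayed at 0. Under the ceiling, 17 of 57 T were called in young and 16 of 57 in old cells, 3 of 4 tRNAs had T54 above T55 in every pair, and 4 of 36 bases passed the age test without CMC, for which DESeq2 called 2 of 49. The A, C and G calls were the least steady. In old cells there were 0 at a coverage minimum of 50, 8 at 10 and 1 with 1 subtracted. In young cells 1 was called at a minimum of 10. With each pair left out in turn, the A, C and G calls ranged from 0 to 1 in young and from 2 to 5 in old cells, the called T from 32 to 34 in young cells with 33 in old cells each time, and the tRNAs with T54 above T55 from 7 to 8. For the remaining shifts in number the cause was not tested, beyond fewer bases entering at stricter minimums. Of the alternatives at named sites, 812 kept direction and side of the threshold, 13 lost the threshold, 1 gained it and none reversed. The losses lay at bases 19, 20, 47 and 51 of CTG-1-1, and the gain at its base 50, which rose by 10.0 points in young cells without pair 2.

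BEU and CMC libraries were paired by their shared age and number. The deviations of libraries paired in this way correlated between -0.194 and 0.206. Correlations this weak cannot settle whether the 2 libraries of a pair came from the same RNA. With a replicate block, 34 T were called in young and 33 in old cells, 2 A, C or G in old and 0 in young cells, with 0 age calls in CMC stops, BEU stops or abundance. Depth left 63 of the 176 T untested, with under 20 reads in some library.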
